A study of Mus musculus with 56 samples.

Results

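The liver expresses many cytochrome P450 genes of the Cyp2 family, of which 10, Cyp2a4, Cyp2a5, Cyp2a12, Cyp2a22, Cyp2d9, Cyp2d10, Cyp2d22, Cyp2d26, Cyp2f2 and Cyp2j5, were followed by RNA-seq through thyroid hormone deficiency, hormone treatment and a mutation of the corepressor NCOR1. They were chosen by symbol as the Cyp2a, Cyp2d, Cyp2f and Cyp2j genes of interest in liver and are 10 of the 23813 genes in the table of RPKM values, which are read numbers scaled by transcript length and library size. All 10 were above the low-value filter in every comparison. The livers came from male mice in 3 groups of 4, each mouse giving 1 library. For 16 days the hypothyroid WT group was fed low iodine chow that contained 0.15% PTU (propylthiouracil), an inhibitor of thyroid hormone production. The T3-treated WT group received the same diet and injections of 5 µg of triiodothyronine (T3) each over the last 4 to 6 days. By the protocol of the study, mice left hypothyroid were injected with vehicle instead. The hypothyroid L-NCORdeltaID group received PTU and expressed, in the liver only, an NCOR1 protein without 2 of the domains that bind the thyroid hormone receptor. PTU was thus common to all 12 mice, no euthyroid mice were included in the RNA-seq, and the L-NCORdeltaID mice were on a mixed C57BL/6;129S background. The background of the WT mice is not stated for the RNA-seq in the sources used here, so that genotype and background cannot be told apart. Over all mice of the study, the mean age given is lower for L-NCORdeltaID than for hypothyroid WT mice. Ages of the mice used for RNA-seq are not given separately, so that genotype and age cannot be told apart either.

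P450 enzymes are heme proteins of the endoplasmic reticulum that oxidise lipophilic substrates with electrons delivered by P450 oxidoreductase. The Cyp2 family is a large group of drug and steroid oxidising P450s in rodent liver, and many of its genes lie in tandem clusters of recent duplicates. Several mouse Cyp2 genes differ between the sexes under control of growth hormone pulses acting through STAT5B. Among these, Cyp2d9 encodes a testosterone hydroxylase that is higher in male liver and Cyp2a4 encodes a testosterone hydroxylase that is higher in female liver. NCOR1 bridges unliganded nuclear receptors, such as the thyroid hormone receptor, to the histone deacetylase HDAC3.

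The genes lie at 3 loci of the mouse genome build mm9, here with GENCODE M1 coordinates. On chromosome 7 there are 5 within 826 kb, in the order Cyp2a4 (chr7:27092209-27100107, plus strand), Cyp2a5 (chr7:27620324-27628567, plus), Cyp2a22 (chr7:27716650-27724405, minus), Cyp2a12 (chr7:27814109-27821826, plus) and Cyp2f2 (chr7:27904928-27918679, plus). On chromosome 15 there are 4 within 424 kb, in the order Cyp2d22 (chr15:82200958-82210690, minus), Cyp2d10 (chr15:82233276-82237624, minus), Cyp2d9 (chr15:82282807-82287257, plus) and Cyp2d26 (chr15:82620537-82624675, minus). Cyp2j5 lies alone on chromosome 4 (chr4:96295464-96330845, minus).

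The list holds 3 pairs of close copies, whose members had different RNA levels and, as given further on, different responses. The coding sequences of Cyp2a4 and Cyp2a5 were identical at 98.5% of 1485 aligned bases, those of Cyp2a12 and Cyp2a22 at 97.0% of 1479 bases, and those of Cyp2d9 and Cyp2d10 at 92.5% of 1515 bases. To show how alike the DNA before their starts is, the stretches upstream of both the RefSeq and the GENCODE start were aligned within each pair. They are part of the RefSeq promoter sequences (GRCm38.p6) and were placed on mm9 by exact match. Capitals mark bases that differ from the partner or are absent from it, and all are written 5′ to 3′ on the strand of the gene.
Cyp2a4, chr7:27091962-27092177, plus strand: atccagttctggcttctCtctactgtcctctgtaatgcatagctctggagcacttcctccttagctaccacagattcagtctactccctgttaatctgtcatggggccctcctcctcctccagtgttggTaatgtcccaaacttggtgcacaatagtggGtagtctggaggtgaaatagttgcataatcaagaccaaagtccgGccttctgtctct
Cyp2a5, chr7:27620108-27620323, plus strand: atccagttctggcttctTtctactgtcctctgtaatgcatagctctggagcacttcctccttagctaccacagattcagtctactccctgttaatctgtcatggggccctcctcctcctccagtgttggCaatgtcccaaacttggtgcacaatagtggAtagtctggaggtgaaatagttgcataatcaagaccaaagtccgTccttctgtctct
Cyp2a12, chr7:27813859-27814097, plus strand: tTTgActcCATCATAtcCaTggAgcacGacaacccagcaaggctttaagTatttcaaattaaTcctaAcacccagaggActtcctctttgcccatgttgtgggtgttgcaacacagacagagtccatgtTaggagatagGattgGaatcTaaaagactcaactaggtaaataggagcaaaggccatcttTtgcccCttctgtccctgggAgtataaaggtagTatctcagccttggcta
Cyp2a22, chr7:27724406-27724637, minus strand: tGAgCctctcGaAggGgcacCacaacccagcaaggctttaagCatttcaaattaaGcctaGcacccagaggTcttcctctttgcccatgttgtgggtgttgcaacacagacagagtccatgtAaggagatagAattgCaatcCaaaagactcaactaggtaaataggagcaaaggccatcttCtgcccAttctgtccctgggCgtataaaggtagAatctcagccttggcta
Cyp2d9, chr15:82282561-82282806, plus strand: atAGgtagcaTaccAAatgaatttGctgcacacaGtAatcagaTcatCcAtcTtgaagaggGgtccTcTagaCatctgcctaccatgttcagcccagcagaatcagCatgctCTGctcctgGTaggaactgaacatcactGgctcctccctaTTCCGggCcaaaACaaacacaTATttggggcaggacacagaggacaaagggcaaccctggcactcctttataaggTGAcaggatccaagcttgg
Cyp2d10, chr15:82237628-82237874, minus strand: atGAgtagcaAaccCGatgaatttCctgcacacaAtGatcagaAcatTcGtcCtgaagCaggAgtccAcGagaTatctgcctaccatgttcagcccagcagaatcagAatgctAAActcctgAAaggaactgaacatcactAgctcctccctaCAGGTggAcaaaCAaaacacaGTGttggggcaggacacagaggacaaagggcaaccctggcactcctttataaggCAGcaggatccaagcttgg

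The Cyp2a4 and Cyp2a5 stretches differed at 4 of 216 positions. The Cyp2a12 and Cyp2a22 stretches had 19 mismatches and 7 bases present in Cyp2a12 only, and the Cyp2d9 and Cyp2d10 stretches had 37 mismatches and 1 base present in Cyp2d10 only. The 250 bases before the RefSeq start were then searched on both strands in the 9 genes with a RefSeq promoter entry, which leaves out Cyp2d22. The hexamer AGGTCA, to which the thyroid hormone receptor and other nuclear receptors bind, was found in Cyp2j5 (197 to 192 bases before the start) and in Cyp2f2 (221 to 216 bases before the start), against 14.0% of all 32851 promoter entries. A pair of copies in direct repeat with a spacing of 4 bases (DR4) were found in 0 of the 9, against 0.0152% of all. The palindrome TTCNNNGAA, to which STAT5 binds, was found in 0 of the 9, against 7.02% of all. Absence means only that these letters are not in these windows.

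Sequence identity limits how well reads can be assigned. Of all 50-base windows of the longest Cyp2a4 transcript, 36.5% were also found in Cyp2a5, and 31.0% of Cyp2a5 windows were found in Cyp2a4. For Cyp2a12 and Cyp2a22 the shares were 27.9% and 20.6%. Cyp2d10 shared 38.4% of its windows with other genes, mostly with Cyp2d11 (25.9%), and Cyp2d9 shared 29.0%, of which the largest part was with Cyp2d12 (11.1%). Cyp2d26 shared 10.9% and Cyp2d22 6.14%, while Cyp2j5 shared 0.174% and Cyp2f2 0%. The deposited values rest on uniquely aligned reads, so that a read wholly within a shared stretch is left out rather than divided between genes. How far this lowers the values of genes with many shared windows was not tested. The levels of the 6 paired genes are therefore less certain than those of Cyp2f2 and Cyp2j5.

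In the hypothyroid WT livers the highest level was that of Cyp2a5, known for hydroxylation of coumarin and nicotine, with 983 ± 170 RPKM (mean ± SD, n = 4, as for all means here). It was followed by Cyp2d9 (680 ± 81.7), Cyp2d26 (596 ± 52.2), Cyp2d10 (549 ± 40.7) and Cyp2f2 (430 ± 138), and neighbours among these 4 overlapped in range. Cyp2a12 (199 ± 39.97) overlapped with Cyp2j5 (190 ± 9.23). Cyp2d22 (149 ± 13.8), Cyp2a4 (26.1 ± 22.7) and Cyp2a22 (1.24 ± 0.220) followed without overlap. RPKM values are scaled by transcript length, but the share of windows common with other genes differs between these genes. The order of genes at similar levels is therefore uncertain.

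In T3-treated WT livers the order was led by Cyp2f2 (732 ± 152 RPKM), followed by Cyp2a12 (461 ± 15.8), Cyp2a5 (377 ± 86.5) and Cyp2d10 (360 ± 16.5). Ranges of neighbours overlapped between Cyp2a12 and Cyp2a5, between Cyp2a5 and Cyp2d10, between Cyp2j5 and Cyp2d22, and between Cyp2a4 and Cyp2a22. In hypothyroid L-NCORdeltaID livers Cyp2a5 led with 1500 ± 352 RPKM, and all 4 libraries lay above the highest value of the next gene, Cyp2f2 (486 ± 175). From Cyp2f2 down to Cyp2a4 every gene overlapped with its neighbour.

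**Figure D1:**
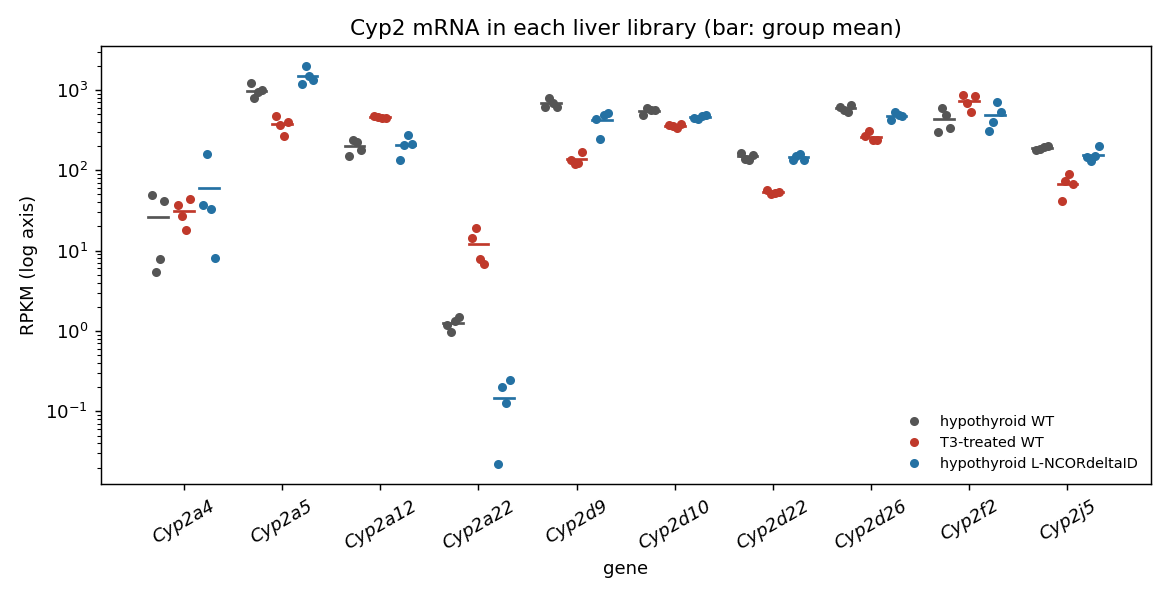
RPKM (log axis) of the 10 Cyp2 genes in each of the 12 liver libraries. Points are libraries, short bars are group means of 4, and colours are the groups. The T3-treated points lie apart from the hypothyroid WT points for 8 genes and overlap with them for Cyp2a4 and Cyp2f2.

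The 10 genes together held 0.950 ± 0.0335% of the summed RPKM in hypothyroid WT, 0.646 ± 0.0610% in T3-treated WT and 0.997 ± 0.101% in L-NCORdeltaID livers. The range was 0.905 to 0.985% in hypothyroid WT and 0.565 to 0.711% after T3, with no overlap. The composition differed as well. Cyp2a5 made up 25.9 ± 4.73% of the summed level of the 10 genes in hypothyroid WT, 15.0 ± 1.95% after T3 and 38.1 ± 6.00% in L-NCORdeltaID. Cyp2f2 made up 11.3 ± 3.42%, 29.1 ± 3.14% and 12.3 ± 3.53%, and Cyp2a12 5.23 ± 0.991%, 18.6 ± 1.93% and 5.25 ± 1.02%. Shares are descriptions and were not tested.

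**Figure D2:**
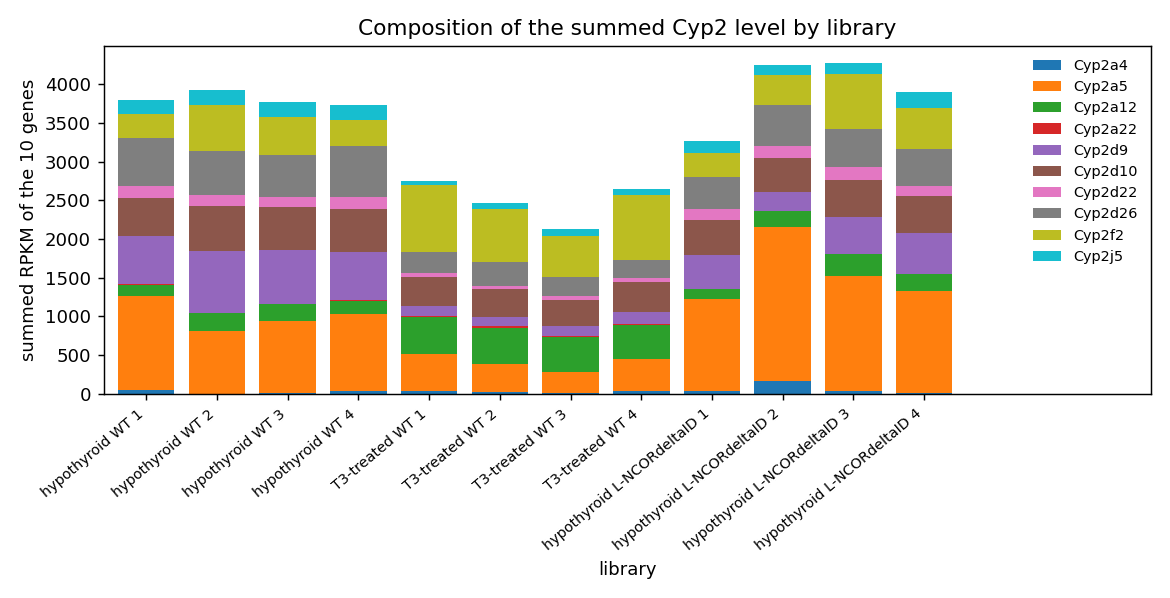
Summed RPKM of the 10 genes in each library (bar height), split by gene (colours). The 4 T3-treated bars lie between 2132 and 2744 RPKM and all other bars between 3264 and 4278 RPKM. Cyp2a22 is too low to be seen at this scale.

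Response of the Cyp2 genes to T3 was addressed by comparing T3-treated with hypothyroid WT livers. T3 treatment went with lower RNA of Cyp2a5, Cyp2d9, Cyp2d22, Cyp2d26 and Cyp2j5 and with higher RNA of Cyp2a12 and Cyp2a22. Cyp2d9, the male-biased testosterone hydroxylase, fell most, from 680 to 136 RPKM, and Cyp2a22 rose most, from 1.24 to 11.99 RPKM. The test was limma on log2(RPKM + 0.1) with Benjamini-Hochberg adjustment over all 13941 genes tested, and a gene was called when its adjusted p was under 0.01 and its log2 fold change exceeded 1 in either direction. By this rule 5 of the 10 genes fell, against 3.47% of all genes tested, and 2 rose, against 8.28% of all. The median log2 fold change was -0.89 over the 10 genes and 0.23 over all genes, and scaling the libraries by the median of gene ratios moved the latter to 0.01. Relative to all genes, the declines are thus slightly larger and the increases slightly smaller than the log2 fold changes given here. The groups did not overlap for 8 of the 10 genes, against 46.6% of all genes tested.

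The Cyp2a genes on chromosome 7 moved in different directions. Cyp2a5 RPKM was 1211, 805, 931 and 984 in hypothyroid WT replicates 1 to 4 and 476, 363, 268 and 402 in the T3-treated replicates. All T3-treated livers lay below all hypothyroid WT livers, a 2.61-fold lower mean (log2 fold change -1.40, SE 0.19, adjusted p = 0.00039 in limma). Cyp2a12, an enzyme that hydroxylates testosterone and bile acids, was at 152, 237, 227 and 179 RPKM in hypothyroid WT and at 481, 465, 452 and 445 RPKM after T3. The T3-treated values lay close together, with a coefficient of variation of 3.44%, and all were above the hypothyroid WT values (2.32-fold higher mean, log2 fold change 1.23, SE 0.14, adjusted p = 0.00015 in limma). Scaling by the median of gene ratios brought the change of Cyp2a12 to 0.997, just below the fold threshold.

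Cyp2a22, the close copy of Cyp2a12, had 1.18, 0.971, 1.34 and 1.48 RPKM in hypothyroid WT. After T3 it had 14.3, 19.0, 7.84 and 6.79 RPKM, so that the lowest T3-treated liver was above the highest hypothyroid WT liver. The mean was 9.64-fold higher (log2 fold change 3.06, SE 0.31, adjusted p = 8.6e-05 in limma). Even after T3 the level of Cyp2a22 was far below that of Cyp2a12, 11.99 ± 5.75 against 461 ± 15.8 RPKM.

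Cyp2a4 varied more between mice than any other of the 10 genes in hypothyroid WT. Its RPKM was 49.2, 5.48, 7.88 and 42.0 in hypothyroid WT and 36.6, 27.1, 18.3 and 43.6 after T3. The hypothyroid WT replicates fell into a higher pair (1 and 4) and a lower pair (2 and 3), with an 8.97-fold range, and the T3-treated livers lay within this range. Replicates 1 and 4 were also both higher for Cyp2a5, Cyp2d22 and Cyp2d26. They were both lower for Cyp2a12, Cyp2d9, Cyp2d10 and Cyp2f2, and neither for Cyp2a22 and Cyp2j5. Over genes with a mean of at least 1 RPKM, these were the 2 closest library pairs of all (median log2 difference 0.117 for 2 and 3, 0.137 for 1 and 4). The cause was not tested. The difference was not larger than this spread (log2 fold change 0.78, SE 0.69, 95% interval -0.78 to 2.34, adjusted p = 0.37 in limma). Because reads of Cyp2a4 and Cyp2a5 can be confused, their levels were also summed. The sum allows for reads assigned to the wrong gene of the pair, but does not recover reads left out because they align to both. The sum was 1260, 810, 939 and 1026 RPKM in hypothyroid WT and 512, 390, 287 and 446 RPKM after T3, again with no overlap. It consisted mostly of Cyp2a5 and thus largely repeats the result of that gene. Cyp2a4 made up 0.677 to 4.09% of this sum in hypothyroid WT and 6.37 to 9.77% after T3, ranges that do not overlap.

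All 4 Cyp2d genes had lower values after T3, by different amounts, and 3 of them passed the thresholds. These are mouse relatives of the human drug oxidising enzyme CYP2D6. Cyp2d9 had 619, 793, 685 and 621 RPKM in hypothyroid WT and 133, 120, 125 and 167 RPKM after T3. The highest T3-treated value was far below the lowest hypothyroid WT value (4.98-fold lower mean, log2 fold change -2.32, SE 0.13, adjusted p = 5.8e-06 in limma). Its close copy Cyp2d10 had 492, 588, 558 and 557 RPKM in hypothyroid WT and 369, 354, 340 and 377 RPKM after T3. These groups did not overlap either, but the decline was smaller (1.52-fold lower mean, log2 fold change -0.60, SE 0.09, adjusted p = 0.00055 in limma) and below the fold threshold.

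Cyp2d22 had 164, 139, 135 and 157 RPKM in hypothyroid WT and 56.9, 50.5, 51.6 and 54.2 RPKM after T3. The T3-treated livers were nearly equal and all lower (2.79-fold lower mean, log2 fold change -1.47, SE 0.08, adjusted p = 6.1e-06 in limma). Cyp2d26 had 619, 570, 538 and 656 RPKM in hypothyroid WT and 270, 304, 241 and 237 RPKM after T3. Again no T3-treated liver reached the hypothyroid WT range (2.26-fold lower mean, log2 fold change -1.18, SE 0.11, adjusted p = 5.4e-05 in limma).

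Cyp2f2, known for the bioactivation of naphthalene in lung and liver, had 302, 597, 489 and 333 RPKM in hypothyroid WT and 864, 684, 539 and 841 RPKM after T3. T3-treated replicate 3 lay within the hypothyroid WT range. The mean was 1.70-fold higher, with a log2 fold change of 0.80 (SE 0.24, 95% interval 0.26 to 1.33, adjusted p = 0.021 in limma), which did not pass the thresholds. Cyp2j5, an epoxygenase of arachidonic acid, had 181, 184, 195 and 201 RPKM in hypothyroid WT and 42.0, 73.8, 89.5 and 67.8 RPKM after T3. The T3-treated livers spread 2.13-fold and all lay below the narrow hypothyroid WT range (2.79-fold lower mean, log2 fold change -1.53, SE 0.20, adjusted p = 0.00032 in limma).

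**Figure D3:**
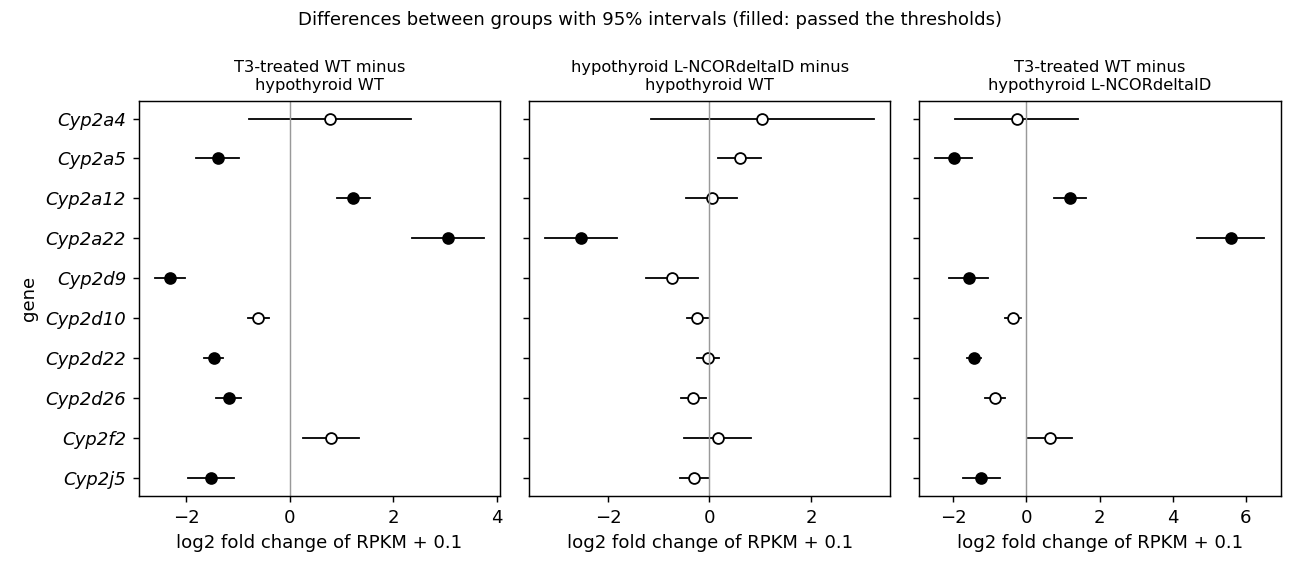
Log2 fold change of RPKM + 0.1 for the 10 genes in the 3 comparisons, with 95% intervals from limma. Filled points passed the thresholds of the comparison, 7 of 10 for T3, 1 of 10 for L-NCORdeltaID and 6 of 10 between T3-treated WT and hypothyroid L-NCORdeltaID.

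Some libraries held RNA of other cell types, in part with higher values after T3. The summed RPKM of 6 Kupffer cell and macrophage markers was 42.2 to 59.9 in hypothyroid WT and 132 to 218 after T3, and all 6 rose by the rule above. Of 5 pancreas acinar markers, summed at 8.64 to 14.1 RPKM in hypothyroid WT and 68.4 to 640 RPKM after T3, the highest sum was in T3-treated replicate 3, and Amy2a5 was at 0 in every library. Of the 4 acinar markers above the filter, 1 (Cela1) rose and 3 did not pass the thresholds. Skeletal muscle markers summed to 22.3 RPKM in hypothyroid WT replicate 4 and to at most 0.164 RPKM in the other WT libraries. In the L-NCORdeltaID libraries they summed to 0.048 to 5.93 RPKM, with the highest sum in replicate 1. In bulk RNA, fewer cells of a type and less RNA per cell cannot be told apart. The 7 calls for T3 held without any single library of that comparison, T3-treated replicate 3 and hypothyroid WT replicate 4 included. Leaving out 1 library cannot remove a difference shared by the whole T3-treated group, such as that of the Kupffer cell and acinar sums. The summed level of 7 hepatocyte markers was 38721 to 50294 RPKM in hypothyroid WT and 21462 to 29611 RPKM after T3. Of the 7, Alb and Ttr fell and 5 did not pass the thresholds, and their median log2 fold change was 0.12. The part of these cell types in the differences was not tested.

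Whether the NCOR1 mutation alters these genes without hormone was addressed by comparing hypothyroid L-NCORdeltaID with hypothyroid WT livers. Of the 10 genes, Cyp2a22 was lower in L-NCORdeltaID livers and the other 9 did not pass the test. Ncor1 itself, the targeted gene, had 15.6, 14.3, 14.6 and 14.1 RPKM in hypothyroid WT and 13.4, 12.1, 12.4 and 13.9 RPKM in L-NCORdeltaID livers. The slightly lower Ncor1 values did not pass the test (log2 fold change -0.18, SE 0.07, adjusted p = 0.20 in limma), and since the mutant lacks only part of the protein, a value for the whole gene does not check the genotype. In this comparison a change was counted at an adjusted p under 0.01 in limma whatever its size, over 13790 genes. It shares its hypothyroid WT libraries with the T3 comparison, so that the estimates are not independent.

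Cyp2a22 had 0.022, 0.201, 0.126 and 0.244 RPKM in L-NCORdeltaID livers, all below the hypothyroid WT values of 0.971 to 1.48 RPKM. At the depth of these libraries this was about 2, 17, 12 and 21 reads, against 68 to 126 reads in hypothyroid WT. The mean was 8.39-fold lower (log2 fold change -2.52, SE 0.31, 95% interval -3.23 to -1.81, adjusted p = 0.0034 in limma). It was thus 1 of 10 genes lower, against 0.544% of all genes tested, and 0 of the 10 were higher, against 0.725% of all (1.27% in either direction). It was lost when any hypothyroid WT library was left out or when L-NCORdeltaID replicate 3 was left out (adjusted p at most 0.016), with a pseudocount of 0.01 and without the filter on low values, while the log2 fold change stayed between -2.72 and -2.22 without single libraries. At so low a level the log2 fold change depends on the pseudocount and was -0.97 with a pseudocount of 1 and -3.33 with 0.01. From T3-treated WT to hypothyroid WT to hypothyroid L-NCORdeltaID, Cyp2a22 thus had mean levels of 11.99, 1.24 and 0.148 RPKM.

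Cyp2d9, Cyp2d10 and Cyp2d26 had lower values in every L-NCORdeltaID liver than in any hypothyroid WT liver but did not pass the test. With Cyp2a22, the groups did not overlap for 4 of the 10 genes, against 13.1% of all genes tested. Cyp2d9 had 439, 245, 481 and 522 RPKM in L-NCORdeltaID livers, with replicate 2 far below the others (log2 fold change -0.74, SE 0.22, adjusted p = 0.11 in limma). Cyp2d10 had 454, 437, 479 and 485 RPKM (log2 fold change -0.24, SE 0.09, adjusted p = 0.17 in limma). Cyp2d26 had 420, 528, 491 and 475 RPKM (log2 fold change -0.32, SE 0.11, adjusted p = 0.13 in limma). The fourth gene of the cluster, Cyp2d22, had 134, 150, 161 and 133 RPKM, within and around the hypothyroid WT range (log2 fold change -0.04, 95% interval -0.25 to 0.18).

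Cyp2a5 had 1187, 1994, 1493 and 1326 RPKM in L-NCORdeltaID livers, of which replicate 1 lay below the highest hypothyroid WT value. The log2 fold change of 0.60 (SE 0.19, adjusted p = 0.12 in limma) did not pass the test. The sum of Cyp2a4 and Cyp2a5 was 1225, 2156, 1526 and 1335 RPKM. Cyp2a4 alone had 37.5, 162, 32.8 and 8.21 RPKM, a 19.7-fold range within the group, and its log2 fold change of 1.04 had a 95% interval from -1.15 to 3.24. Cyp2a12 (134 to 278 RPKM), Cyp2f2 (311 to 713 RPKM) and Cyp2j5 (129 to 202 RPKM) overlapped with hypothyroid WT. Their 95% intervals for the log2 fold change were -0.46 to 0.55, -0.50 to 0.82 and -0.59 to -0.01.

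L-NCORdeltaID replicate 2 was at the low end of its group in the male-biased genes. It had the highest Cyp2a4 and Cyp2a5 and the lowest Cyp2d9 of its group. It was also the lowest of the 4 libraries for 12 of 14 genes known to be higher in male liver, which summed to 2588 RPKM in this library and to 5091 to 10203 RPKM in the other L-NCORdeltaID libraries. The median log2(RPKM + 0.1) of the 14 was 4.91 in replicate 2, near the 5.25 of replicate 1. It was 6.27 and 6.59 in replicates 3 and 4. Among the T3-treated livers, replicate 2 was lowest for 9 of the 14. Of the 10 female-biased genes above 0.1 RPKM in an L-NCORdeltaID library, 5 were highest in replicate 2 and 4 in replicate 1, and their sum was 110 RPKM in replicate 2 and 36.6 to 59.7 RPKM in the others. The Kupffer cell and macrophage markers summed to 129 RPKM in this library and to 47.3 to 72.3 RPKM in the others. Without replicate 2, Cyp2a22 was the gene that passed the test among the 10, as with it.

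T3-treated WT livers were compared directly with hypothyroid L-NCORdeltaID livers to place the levels of the 3 groups in order. These groups differ in hormone and genotype at once. With the thresholds of the T3 comparison, Cyp2a12 and Cyp2a22 were higher in the T3-treated WT livers (2 of 10, against 5.52% of 14017 genes tested), and Cyp2a5, Cyp2d9, Cyp2d22 and Cyp2j5 were lower (4 of 10, against 3.00%, with 8.53% of all genes called in either direction). The groups did not overlap for 8 of the 10 genes, against 38.3% of all. The difference was largest for Cyp2a22, with a log2 fold change of 5.58 (SE 0.40, adjusted p = 3.2e-05 in limma), which was 3.40 with a pseudocount of 1 and 6.47 with 0.01. Cyp2a5 was 3.98-fold lower in the T3-treated livers (log2 fold change -1.99, SE 0.22, adjusted p = 0.00025 in limma), and Cyp2d9 was 3.09-fold lower (log2 fold change -1.58, SE 0.23, adjusted p = 0.0010 in limma). Cyp2d26 (log2 fold change -0.87) and Cyp2d10 (log2 fold change -0.36) were lower in all T3-treated livers without passing the fold threshold. Cyp2a4 and Cyp2f2 overlapped. The calls of Cyp2a12 and Cyp2j5 were lost in some alternatives, Cyp2a12 without L-NCORdeltaID replicate 1 (log2 fold change 0.99) and Cyp2j5 without replicate 3 (adjusted p = 0.011 in limma).

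Related genes were described by the same rules. Of 19 further genes of these subfamilies and of the smaller Cyp2 subfamilies, 13 were above the filter in the T3 comparison, of which 3 fell and 0 rose, with a median log2 fold change of -0.71. The 3 were Cyp2e1, the ethanol oxidising enzyme of pericentral hepatocytes (5109.9 to 948 RPKM, log2 fold change -2.44, SE 0.16), Cyp2d12 (0.975 to 0.289 RPKM) and Cyp2j9 (3.99 to 1.78 RPKM). Cyp2d13, a relative within the Cyp2d cluster at 110 RPKM in hypothyroid WT, had 64.2 RPKM after T3 (log2 fold change -0.78), below the fold threshold. Cyp2d40 went the other way, with 25.8 RPKM in hypothyroid WT and 42.9 RPKM after T3. Its change did not pass the thresholds (log2 fold change 0.68, adjusted p = 0.075 in limma). None of the 14 above the filter passed the test in the L-NCORdeltaID comparison. In the direct comparison 12 were above the filter. Of these, Cyp2d40 was higher in T3-treated WT livers (log2 fold change 1.63, adjusted p = 0.0079 in limma), and Cyp2e1 and Cyp2g1 were lower.

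Genes for electron supply and heme synthesis gave 0 higher and 1 lower of 13 with T3. The 1 was Cyb5a, the electron donor cytochrome b5, which fell from 1171 to 454 RPKM (log2 fold change -1.36). Por, the P450 oxidoreductase, was at 212 and 181 RPKM (log2 fold change -0.25, adjusted p = 0.18 in limma), and Alas1, the rate-limiting enzyme of heme synthesis, was at 207 and 102 RPKM (log2 fold change -0.95, adjusted p = 0.015 in limma). In L-NCORdeltaID livers 0 of the 13 passed the test.

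Of 18 transcription factors and receptors known to act on hepatic Cyp2 genes, 4 rose and 1 fell with T3. The constitutive androstane receptor Nr1i3 fell from 173 to 44.4 RPKM (log2 fold change -1.97) and was also lower in L-NCORdeltaID livers (81.7 RPKM, log2 fold change -1.07, adjusted p = 0.0014 in limma). Stat5a rose from 1.504 to 15.8 RPKM (log2 fold change 3.34), Stat5b from 7.89 to 26.9 RPKM (log2 fold change 1.76), Cebpb from 12.8 to 69.2 RPKM (log2 fold change 2.31) and Cux2, a repressor of male-biased genes, from 0.107 to 1.95 RPKM (log2 fold change 3.20). Cebpb was the gene of this list that was higher in L-NCORdeltaID livers (32.2 RPKM, log2 fold change 1.32, adjusted p = 0.0026 in limma).

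Sex-biased genes moved with T3 in both directions. Of 14 genes known as higher in male liver, 7 fell and 2 rose, with a median log2 fold change of -1.56. Of 13 tested genes known as higher in female liver, 7 rose and 2 fell, with a median of 2.82. Of these, A1bg, Sult2a1 and Sult3a1 averaged 0.082, 0.014 and 0.076 RPKM in hypothyroid WT, below the filter level of 0.1 RPKM. They passed the filter mainly through the T3-treated livers, with means of 1.42, 1.07 and 30.6 RPKM. Such genes could hardly be tested without being higher, so the count and median follow in part from the filter. In L-NCORdeltaID livers 2 of 14 male-biased genes were lower, Keg1 and Susd4, and 1 of 10 tested female-biased genes was higher, Cyp3a16, against 0.544% of all genes lower and 0.725% higher in that comparison. Of 12 pericentral genes 5 rose and 4 fell with T3, and of 12 periportal genes 2 rose and 1 fell. The shares for T3 can be read against the 8.28% of all genes that rose and 3.47% that fell, and no list was tested as a set. Cyp2e1, Cyp2u1 and Cux2 each stand in 2 of these lists.

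The genes whose pattern over the 12 libraries was most like each of these genes were sought among 10653 other genes with a mean of at least 1 RPKM. Likeness was the root mean square difference of log2(RPKM + 0.1) after centring each gene on its mean. Among the closest were C1ra and Faah to Cyp2d10 (0.08 and 0.09), Clcn2 to Cyp2d22 (0.11), Slc38a3 to Cyp2d26 (0.13), Hs6st1 to Cyp2a12 (0.19), Chdh to Cyp2j5 (0.20), Izumo4 and Gnmt to Cyp2a5 (0.21 and 0.25), C6 and Aox1 to Cyp2d9 (0.22 and 0.28) and Bhlhe40 to Cyp2f2 (0.24). Cyp2a4 (Clec4n, 0.78) and Cyp2a22 (B3galt1, 0.88, and Cyp39a1, 0.91) had no similarly close gene. The measure is not scaled and grows with a gene's own spread over the libraries, which was wide for Cyp2a4 and Cyp2a22. A large value therefore need not mean a distinct pattern. Within the 10, the closest were Cyp2d22 and Cyp2d26 (0.26), whereas the close copies Cyp2d9 and Cyp2d10 differed by 0.76.

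Position and size of acetylated chromatin at these genes were taken from the merged list of 37200 regions with acetylation of H3K27 or H3K9 in hypothyroid or T3-treated WT liver, marks of active promoters and enhancers. The list holds no signal per condition, so that no change with T3 can be read from it. The GENCODE start of 9 of the 10 genes lay within a region, each in one of its own. For comparison, this held for 92.5% of 9519 genes with a mean of at least 1 RPKM. The regions at the 9 starts were 7144 to 23798 bases long with a median of 15739, against a median of 2537 over all regions. Of the 1267 genes with a mean RPKM at least as high as Cyp2a4 (39.2), 1216 had their start in a region, with a median length of 9152. Cyp2a4 is the lowest of the 9, so that these genes are not matched to the 9 in level. The longest lay over Cyp2f2 (chr7:27900081-27923878) and covered the whole gene, and Cyp2a4, Cyp2a5, Cyp2d9, Cyp2d10 and Cyp2d26 were likewise covered from start to end.

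Cyp2a22, the lowest of the 10 genes, was the exception. No region touched the gene, and the nearest (chr7:27748168-27750982, 2815 bases) began 23763 bases from its start. Its close copy Cyp2a12 had a region of 7144 bases (chr7:27811144-27818287) over the start and 54.1% of the gene. Over Cyp2j5, 9284 bases or 26.2% of the gene lay in 2 regions. Within 100 kb of the starts lay 44 regions in all, and the number per gene of regions ranged from 2 for Cyp2a4 to 10 for Cyp2d9 and for Cyp2f2.

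**Figure D4:**
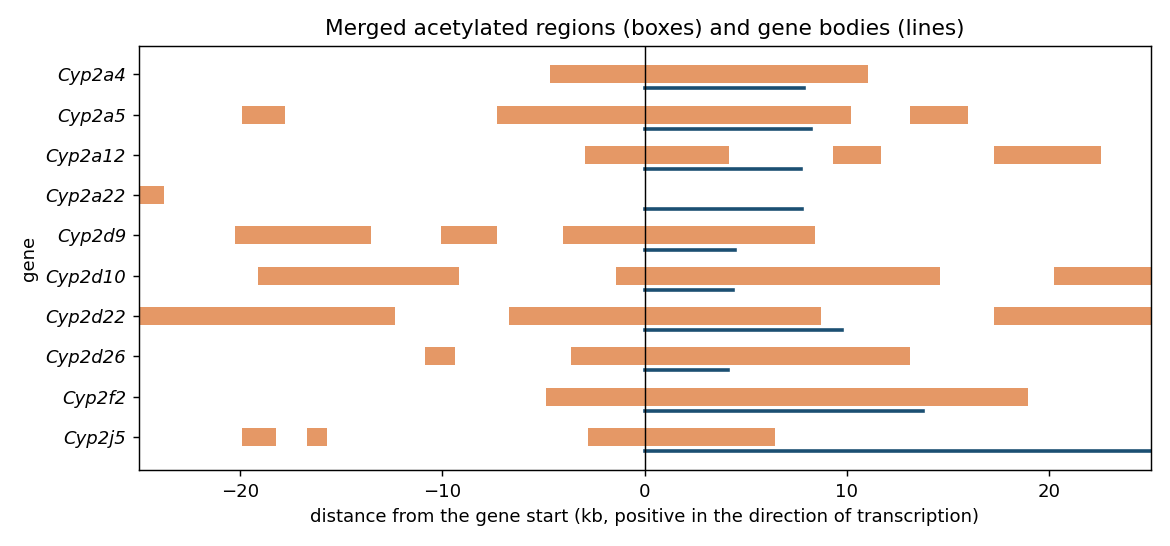
Merged acetylated regions (boxes) and gene bodies (lines) around the start of each of the 10 genes, with the distance from the start in kb on the horizontal axis. A box crosses the start of 9 genes, and none touches Cyp2a22.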

How the data were processed

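Poly(A)-enriched RNA from 12 livers was sequenced on 2 instrument models. The authors aligned reads to mm9 with STAR and used HOMER to quantify RefSeq transcripts, and deposited them as RPKM from uniquely aligned reads. Spacing of the lowest values gave about 21200000 to 42800000 reads per library, so that 0.1 RPKM is 2.13 to 4.28 reads per kilobase. The depth limits precision mainly for Cyp2a22. The acetylated regions were called with HOMER by the authors and merged over marks and conditions, and ChIP-seq signal per sample was not analysed here.

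The first row of each symbol was used (23813 genes). A nameless row, holding up to 0.000785% of the summed RPKM, was dropped. Groups were compared in pairs by limma 3.58.1, run in R 4.3.3 with its variance trend on log2(RPKM + 0.1). A gene was tested if 4 or more of the 8 libraries reached 0.1 RPKM. Fold changes on this scale understate those of low genes. P-values weigh the difference between 2 group means against the spread between the mice within both groups. Limma draws this spread towards that of genes at a similar level. In data simulated for the T3 comparison (13804 genes), 84% of 100 changes of 1.5 on the log2 scale and 94% of 100 changes of 2 were called. The shares were 85% and 93% for L-NCORdeltaID and 79% and 94% for the direct comparison. The simulation used normal noise and changed genes with a mean of at least 1 RPKM. Smaller changes were not simulated, so that it does not tell how often these are missed. Sequences, windows, identities (Biopython 1.88 global alignment) and region overlaps were computed in Python 3.11.15 with pandas 2.3.3.

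Named genes were the 10 members, Ncor1, the 2 nearest genes of each by likeness and the lists described, of which not all are reported here. Members and lists were chosen with earlier results of these data known. Alternatives were another pseudocount (1 or 0.01), no filter or one on a mean RPKM of 1, a joint fit of the 12 libraries, a replicate block, a fit that omits the variance trend, median-ratio scaling, an adjusted p under 0.05, the row with the highest mean, each library left out, and distances of 50 and 200 kb.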

Additional observations from a re-analysis of the deposited data

How the results depend on the processing

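Of 539 recomputed results for the 10 genes, 518 kept their direction and their side of the threshold, 15 lost or gained a call and 6 changed sign, all 6 for genes that had not passed the test. For T3 the 7 calls held in every alternative except Cyp2a12 under median-ratio scaling. Cyp2a22 lost its call in the L-NCORdeltaID comparison with a pseudocount of 0.01 (log2 fold change -3.33, adjusted p = 0.018 in limma), without the filter and with the replicate block (adjusted p = 0.018), and was not tested at a mean of at least 1 RPKM. In the direct comparison Cyp2a12 and Cyp2j5 lost their calls without the filter, Cyp2a12 also under median-ratio scaling, and Cyp2d26 gained one there (log2 fold change -1.06). The 6 sign changes arose when 1 library was left out. In the L-NCORdeltaID comparison Cyp2a12 ranged from -0.112 (without L-NCORdeltaID replicate 3; -0.0782 without hypothyroid WT replicate 1) to 0.240, Cyp2d22 from -0.0916 to 0.00995 (without hypothyroid WT replicate 1; 0.00103 without L-NCORdeltaID replicate 4) and Cyp2f2 from -0.0441 (without L-NCORdeltaID replicate 3) to 0.355. In the direct comparison Cyp2a4 ranged from -0.967 to 0.461 (without L-NCORdeltaID replicate 2).

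Over all genes, 1639 were called for T3, 894 with a pseudocount of 1 and 1430 to 1583 without 1 library; the split of 1155 higher and 484 lower became 758 and 674 under median-ratio scaling. For L-NCORdeltaID 175 were called, 43 without the filter, 45 with the replicate block, 601 at an adjusted p under 0.05 and 67 to 187 without 1 library. In the direct comparison 1195 were called, 764 with a pseudocount of 1, 745 without the filter and 891 to 1183 without 1 library, and the split of 774 higher and 421 lower became 540 and 575 under median-ratio scaling. The replicate numbers did not pair the samples: deviations of same-numbered libraries correlated at 0.06, -0.08, 0.08 and -0.02 between T3-treated and hypothyroid WT and at 0.27, -0.21, 0.15 and -0.19 between L-NCORdeltaID and hypothyroid WT, and not every library correlated best with its own number. The replicate block changed no other call of the 10 genes. All 36 alternatives for the summed level of Cyp2a4 and Cyp2a5 and the share of summed RPKM moved by less than 1 SD. Most of this was fixed in advance, since leaving out 1 of 4 libraries cannot move a mean by 1 SD. Scaling a library also leaves the share unchanged. Regions near the genes numbered 44 within 100 kb, 32 within 50 kb and 65 within 200 kb. The cause of these changes was not tested.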
